A study of Mus musculus with 6 samples.

Results

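The mRNA decay machinery described here comprises the genes for deadenylases, decapping factors, LSM proteins, exoribonucleases, exosome subunits and nonsense-mediated decay factors. Members were picked by symbol alone, from a fixed pattern of gene names, and 64 of the 23361 genes in the deposited table matched it. Of these, 63 were tested by the authors, among 14858 tested genes in all. Expression was measured by RNA sequencing of muscle stem cells (satellite cells), sorted for the surface proteoglycan Sdc4 from collagenase-digested hindlimb muscle of mice aged 4 months. The labels give 3 wild-type (WT) and 3 AUF1-null (KO) samples from mice of a mixed C57BL/6 and 129 background. They state neither whether each sample is a different animal nor which part of the AUF1 gene was removed.

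The deposited table holds 1 value per gene for each of 2 conditions, named q1 and q2. These values are on the FPKM scale, which counts fragments relative to transcript length and library size, so levels can be compared between genes. Replicates are pooled in them, no sample's own value was analysed here, and no SD or n can stand beside a value. Sequencing depth is unknown. No label used here ties q1 or q2 to a genotype, so each difference is q2 relative to q1 and not a genotype effect. Every p and q is that of Cuffdiff, as given in the authors' deposited table. A gene counts as called at q below 0.05, where q is p adjusted for multiple tests over all tested genes.

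In the cytoplasm most mRNAs are degraded after their poly(A) tail is shortened by the PAN2-PAN3 and CCR4-NOT deadenylases. The shortened message is then either decapped by DCP2 and degraded from its 5' end by XRN1, or degraded from its 3' end by the exosome. Nonsense-mediated decay routes messages with a premature stop codon into these pathways through UPF and SMG proteins. AUF1, encoded by Hnrnpd, is a protein that recognises AU-rich elements in 3' UTRs and can hasten or delay the decay of the bound message.

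Because AUF1 acts through AU-rich elements, matches to such elements in the members' own 3' UTRs were located. The motif TATTTAT, which contains the core ATTTA, was searched on the sense strand of each gene's longest 3' UTR in the annotation (GENCODE vM21, GRCm38). It occurred in 16 of the 64 members, or 25%, against 29.7% of the 13070 tested genes that have such a 3' UTR. With the shortest 3' UTR of each gene these shares were 15.6% and 18.3%. Per length, members carried 0.19 matches per kb and all tested genes 0.29, whereas the core ATTTA occurred at 1.99 and 1.82 per kb. The catalytic subunits of CCR4-NOT and the adaptors Btg2 and Tob2 carried 9 of the members' 20 matches. They are shown because these genes include the only member below an unadjusted p of 0.05 (Cnot6) and the most abundant member (Btg2). Each line runs 5' to 3' along the mRNA, written as DNA, with TATTTAT in capitals.
Cnot6 at chr11:49672370-49672396, minus strand: tggtggtaatTATTTATgctttgagaa
Cnot6 at chr11:49671567-49671593, minus strand: gctagtattaTATTTATatacagggtc
Cnot6l at chr5:96071162-96071188, minus strand: gggaagagatTATTTATttttgtttcc
Cnot6l at chr5:96070946-96070972, minus strand: ttaggttgtgTATTTATttttccccct
Cnot6l at chr5:96070693-96070719, minus strand: tttatttttcTATTTATtacacagttg
Cnot7 at chr8:40493116-40493142, minus strand: tttataaacaTATTTATgatgttcttg
Cnot8 at chr11:58118538-58118564, plus strand: ttgtaaatatTATTTATgtttttaatt
Btg2 at chr1:134077250-134077276, minus strand: aatgaagagcTATTTATacatgttttt
Tob2 at chr15:81849861-81849887, minus strand: atcacctgctTATTTATgtacgaggtt

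All of these deadenylase genes, Cnot6, Cnot6l, Cnot7 and Cnot8, held at least 1 match. The first Cnot6l match is also part of the longer motif TTATTTATT, which 4 members held (6.25%, against 7.98% of tested genes). The 5 matches of Cnot6 and Cnot6l lie outside the positions that the deposited table lists for these genes, in a longer 3' UTR of the annotation used here. In Btg2 the match starts at base 103 of a 3' UTR of 2199 bases, and in Cnot8 at base 960 of 1006. By group, 5 of 10 CCR4-NOT genes and 4 of 10 decapping genes held TATTTAT. None of 13 exosome and DIS3 genes did, and their 3' UTRs had a median length of 350 bases, against 960 for all members. A match marks these letters only, and binding was not measured.

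No member of the decay machinery was called between q1 and q2. The count was 0 of 63 tested members at q below 0.05, where 0.612% of all tested genes were called, and the lowest q among members was 0.725 in the authors' deposited table. By unadjusted Cuffdiff p below 0.05, 1 of 63 members passed, or 1.59%, against 5.99% of all tested genes. That member, Cnot6, was lower in q2, a direction in which 2.27% of all tested genes passed. No member passed as higher, against 3.72% of all tested genes. Of the tested members, 33 were above and 30 below 0 in log2 fold change. Their median log2 fold change was 0.01, and that of all tested genes was -0.01.

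Differences among the members were small. Of 63 members, 55 (87.3%) differed by less than 1.5-fold between conditions, as did 74.2% of all tested genes above 0 on both sides. Among genes with at least 5 FPKM in the higher condition these shares were 89.5% and 83.8%. The largest difference of any member was 1.91-fold, in Cnot6. The smallest fold at which any gene was called, among genes above 0 in both conditions, was 2.501. Among such genes with at least 5 FPKM, none of the 958 genes that differed by 1.5 to 2-fold was called, and 19.7% of them had p below 0.05. The deposited test therefore called no gene in the range of the members' differences, and the absence of calls does not show that the members were unchanged.

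**Figure D1:**
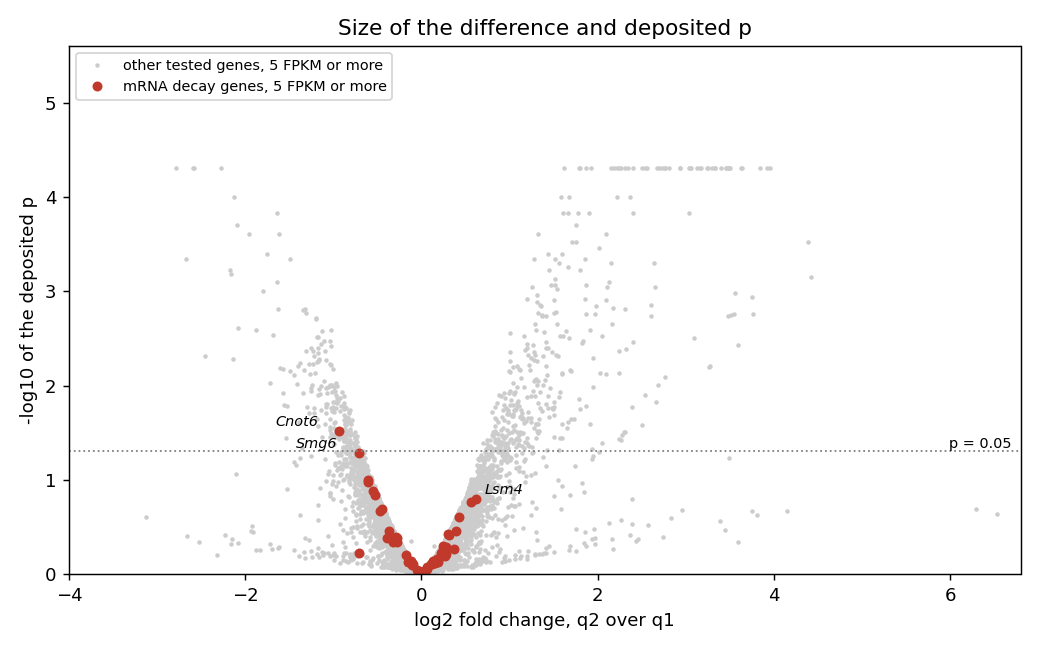
Log2 fold change of q2 over q1 (horizontal) against the negative log10 of the deposited p (vertical) for tested genes with at least 5 FPKM in the higher condition and above 0 in both. Red points are the 57 decay genes and grey points the other genes. The decay genes lie in the centre, and Cnot6 alone is above the dotted line, the threshold of 0.05.

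The CCR4-NOT complex, the main cytoplasmic deadenylase, was expressed in both conditions, with 6 of 10 members above 0 and a median log2 fold change of 0.04. Cnot6 (chr11:49674706-49712710), 1 of 2 CCR4-type nucleases of the complex, was listed at 13.9 FPKM in q1 and 7.25 in q2. Its log2 fold change was -0.94 in the authors' deposited table (Cuffdiff p = 0.0305, q = 0.725). Its paralogue Cnot6l was at 12.4 and 12.5 FPKM. Cnot6 therefore made up 52.8% of the summed FPKM of this pair in q1 and 36.7% in q2. The listed positions of both genes leave out part of their annotated 3' UTRs, so the level of either gene is less certain. No spread is available for that share, and the difference between the paralogues was not tested. Cnot6l lies 3.79 Mb from Hnrnpd on chromosome 5, so it is among the genes close to the targeted locus.

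The CAF1-type nucleases, the other catalytic pair, differed from each other in level. Cnot8 was at 58.1 FPKM in q1 and 54.3 in q2, the highest of the complex. Cnot7 was at 11.4 and 13.7 FPKM, so Cnot8 exceeded it 5.11-fold in q1 and 3.95-fold in q2. The listed position of Cnot7 reaches 119 kb beyond the annotated gene, so its level is less certain. Cnot1, the scaffold on which the complex assembles, was at 9.91 and 10.4 FPKM. The listed positions of Cnot1, Cnot3, Upf1 and Exosc9 reach 14.3, 16.4, 15.8 and 6.27 kb beyond their genes.

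Cnot2 and Cnot3, which form the NOT module with the end of Cnot1, were at 28.5 and 33.7 FPKM and at 5.76 and 7.44 FPKM. Cnot4, a ubiquitin ligase linked to the complex, was at 21.8 FPKM in q1 and 16.9 in q2. The accessory subunits Cnot10 and Cnot11 bind each other. Cnot10 was at 15.4 and 19.1 FPKM, whereas Cnot11 was the lowest of the complex at 1.55 and 0.93 FPKM. The log2 fold change of Cnot11 was -0.74, next in size to that of Cnot6, but its deposited Cuffdiff p was 0.333 in the authors' deposited table. Rqcd1, the older symbol for the CNOT9 subunit, falls outside the name pattern and was at 10.2 and 13.3 FPKM.

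**Figure D2:**
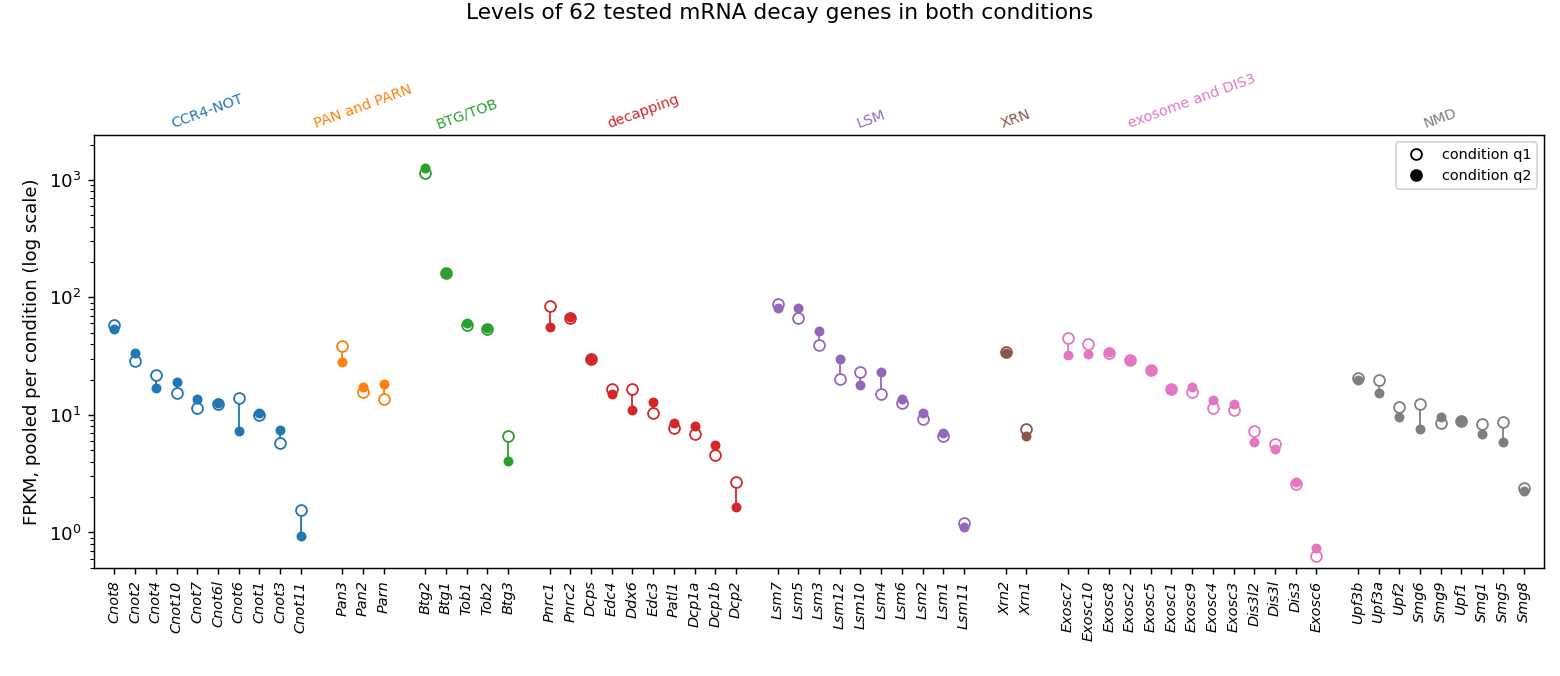
FPKM of 62 tested decay genes on a log scale, in order of mean level within each functional group; open circles are q1 and filled circles q2, each 1 value pooled over replicates. Btg2 stands highest, most genes lie between 5 and 100, and the 2 circles of most genes lie close together.

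The other deadenylases showed no common direction. Pan3, the adaptor that brings PAN2 to poly(A)-binding protein, was at 38.5 FPKM in q1 and 28.2 in q2. Pan2, the nuclease, was at 15.6 and 17.1 FPKM, so the adaptor exceeded the enzyme in both conditions. Parn, a poly(A)-specific nuclease that also trims small RNAs, was at 13.6 and 18.3 FPKM. The Cuffdiff p in the authors' deposited table was lowest for Pan3 among these 3 genes, at 0.204.

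The BTG/TOB family, antiproliferative adaptors that bind the CAF1 nucleases, held the most abundant members. Btg2 (chr1:134074865-134079155), an early-response gene, was at 1148 FPKM in q1 and 1273 in q2, a level above 99.5% of tested genes. Btg1 was at 162 FPKM in both conditions and above 95.6% of tested genes. Tob1 was at 58.8 and 60.0 FPKM and Tob2 at 53.5 and 54.5, which left their ratio at 1.10 in both conditions. Btg2 exceeded Btg1 by 7.07-fold in q1 and 7.83-fold in q2. Btg3 was much lower, at 6.68 and 4.09 FPKM (log2 fold change -0.71, Cuffdiff p = 0.591 in the authors' deposited table). Btg4, known from the oocyte, was listed at 0 in both conditions and was the only member that the authors did not test. The 4 abundant adaptors were within 0.15 of 0 on the log2 scale.

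**Figure D3:**
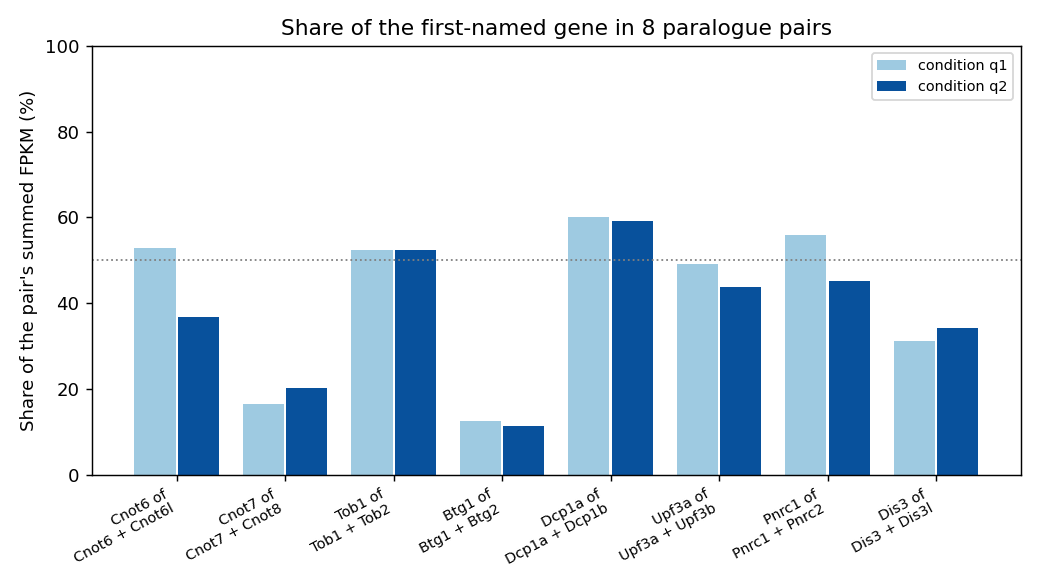
Share of the first-named gene in the summed FPKM of each of 8 paralogue pairs, in percent, in q1 (light) and q2 (dark); each bar is 1 pooled value without an error. The share of Cnot6 goes from 52.8% to 36.7% and that of Pnrc1 from 56.0% to 45.1%, while Tob1 stays at 52.3% and 52.4%.

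Decapping factors were split evenly, with 5 of 10 above 0 and a median log2 fold change of 0.01. Dcp2, the catalytic subunit, was low at 2.68 FPKM in q1 and 1.64 in q2 (log2 fold change -0.71, Cuffdiff p = 0.0967 in the authors' deposited table). Its activators Dcp1a and Dcp1b were at 6.93 and 8.06 FPKM and at 4.60 and 5.58 FPKM. The listed positions of Dcp1a and Dcp1b reach 471 and 583 kb beyond the annotated genes, which makes these levels less certain. Ddx6, the helicase that links deadenylation to decapping, was at 16.7 FPKM in q1 and 11.0 in q2 (Cuffdiff p = 0.0996 in the authors' deposited table).

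Among the enhancers of decapping, Edc3 was at 10.4 and 12.9 FPKM, Edc4 at 16.5 and 15.1 and Patl1 at 7.80 and 8.52. Pnrc1 and Pnrc2, small coregulator proteins of which PNRC2 binds DCP1A, were the most abundant genes of the group. Pnrc1 was at 84.6 FPKM in q1 and 55.6 in q2 (log2 fold change -0.61, Cuffdiff p = 0.106 in the authors' deposited table). Pnrc2 was at 66.5 and 67.6 FPKM. The order of this pair therefore turned between conditions, without a passed test for either gene. Dcps, which clears the cap left after exosomal decay, was at 30.0 and 29.9 FPKM, with a listed position reaching 77.8 kb beyond the gene.

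The LSM genes had the highest median of the larger groups, 0.15 on the log2 scale, with 7 of 10 above 0. LSM2 to LSM7 form a ring with LSM1 in the cytoplasm, where it promotes decapping, and with LSM8 in the nucleus, where it binds U6 RNA. Of the 6 shared subunits, 5 were above 0. Lsm4 (chr8:70673231-70678752) was at 15.2 FPKM in q1 and 23.3 in q2, the largest difference upward of any member (log2 fold change 0.62, Cuffdiff p = 0.159 in the authors' deposited table). Lsm3 was at 39.4 and 51.7 FPKM and Lsm5 at 66.7 and 80.7. Lsm7, the most abundant of the group, was at 87.1 and 80.8 FPKM and alone of the 6 lay below 0. Lsm2 and Lsm6 were at 9.15 and 10.5 FPKM and at 12.8 and 13.7 FPKM.

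The subunits that place the ring differed in level. Lsm1 was at 6.68 and 7.005 FPKM. The gene listed under the older symbol Naa38 at the position of Lsm8 was at 47.7 and 61.3 FPKM and was not among the members. Lsm10 and Lsm11 belong to the U7 particle of histone mRNA processing rather than to mRNA decay. Lsm10 was at 23.4 and 17.9 FPKM and Lsm11 at 1.20 and 1.11. Lsm12 was at 20.1 FPKM in q1 and 29.7 in q2 (log2 fold change 0.56, Cuffdiff p = 0.173 in the authors' deposited table). It matched the name pattern and counts in the group median, but it is not 1 of the ring subunits named above.

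The 5'-to-3' exoribonucleases were close to equal between conditions. Xrn1, the cytoplasmic enzyme, was at 7.53 FPKM in q1 and 6.66 in q2. Xrn2, the nuclear enzyme that also acts in transcription termination, was at 34.1 and 33.4 FPKM.

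The exosome and DIS3 genes all differed by less than 1.5-fold, with 8 of 13 above 0 and a median log2 fold change of 0.02. Of the 9 core subunits Exosc1 to Exosc9, 7 were above 0. Exosc7, a subunit of the ring, was the most abundant at 44.9 FPKM in q1 and 32.5 in q2 (log2 fold change -0.47, Cuffdiff p = 0.215 in the authors' deposited table). Exosc10, the nuclear nuclease of the complex, was at 39.8 and 32.9 FPKM. The other ring subunits Exosc4, Exosc5, Exosc8 and Exosc9 were at 11.4 and 13.5, 24.0 and 24.3, 34.0 and 34.5, and 15.7 and 17.1 FPKM. Exosc6, also of the ring, was listed at 0.63 and 0.74 FPKM, far below its partners, and its listed position reaches 22.4 kb beyond the annotated gene. The cap subunits Exosc1, Exosc2 and Exosc3 were at 16.6 and 16.8, 29.5 and 29.4, and 11.0 and 12.5 FPKM.

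The DIS3 nucleases were lower than most core subunits. Dis3, the mainly nuclear catalytic subunit, was at 2.57 and 2.67 FPKM, with a listed position reaching 155 kb beyond the gene. Dis3l, its cytoplasmic counterpart, was at 5.68 and 5.12 FPKM. Dis3l2, which degrades uridylated RNA without the exosome, was at 7.31 FPKM in q1 and 5.84 in q2.

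**Figure D4:**
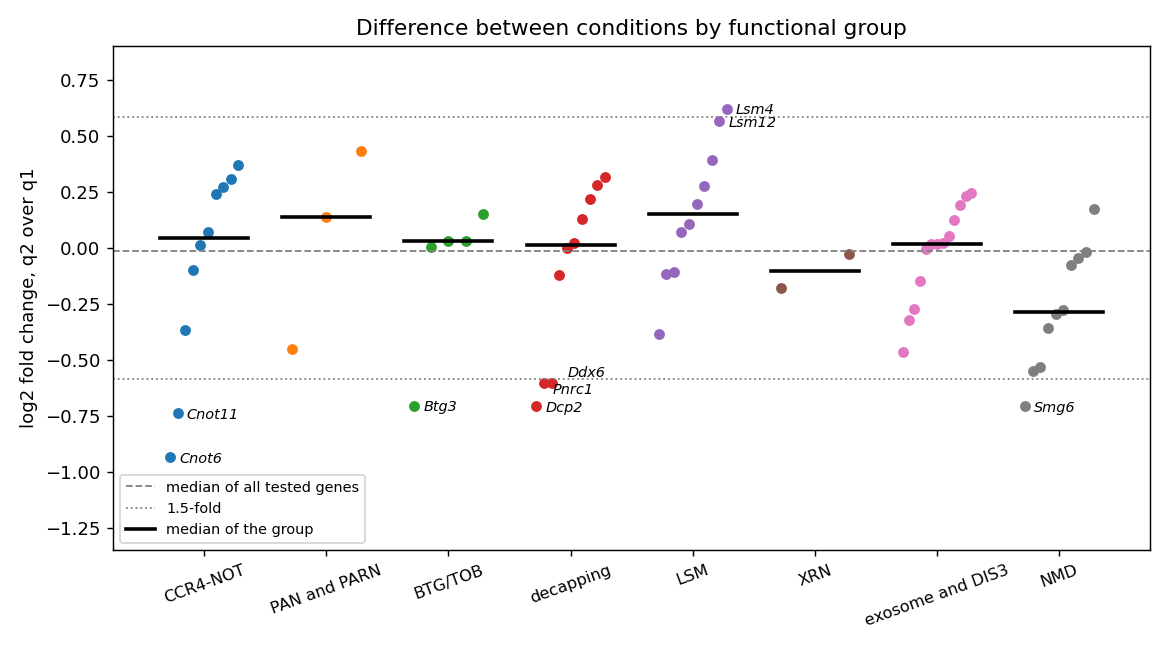
Log2 fold change of q2 over q1 for each tested decay gene (points), by functional group, with the group median (black bar), the median of all tested genes (dashed) and 1.5-fold in either direction (dotted). Nonsense-mediated decay genes have the lowest median at -0.29, and exosome genes lie within the dotted lines.

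The factors of nonsense-mediated decay (NMD) lay mostly below 0, in 9 of 10 cases, with a median log2 fold change of -0.29. Over all tested genes above 0 on both sides, 7589 were below 0 and 7190 above. None of the 10 passed at p below 0.05. Smg6 (chr11:74925872-75164448), the endonuclease that cuts near the premature stop codon, was at 12.5 FPKM in q1 and 7.64 in q2 (log2 fold change -0.71, Cuffdiff p = 0.0524 and q = 0.845 in the authors' deposited table). Smg5, which binds phosphorylated UPF1, was at 8.64 FPKM in q1 and 5.89 in q2 (Cuffdiff p = 0.131 in the authors' deposited table).

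Smg1, the kinase of UPF1, was at 8.39 FPKM in q1 and 6.92 in q2. Its regulators Smg8 and Smg9 were at 2.40 and 2.27 FPKM and at 8.59 and 9.66 FPKM, and Smg9 was the 1 gene of the group above 0. Upf1, the central helicase, was nearly equal at 8.93 and 8.80 FPKM. Upf2, which bridges UPF1 and UPF3, was at 11.7 and 9.52 FPKM. The paralogues Upf3a and Upf3b, which contact the exon junction complex, were at 19.9 and 15.5 FPKM and at 20.6 and 19.9 FPKM.

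Cofactors of decay outside the name pattern were not called either. Of 44 such genes, all tested, 20 were above and 24 below 0, with a median log2 fold change of -0.02. None was called, where 0.612% of all tested genes were. Tnrc6c, a GW182 protein that recruits deadenylases to microRNA targets, was at 15.0 FPKM in q1 and 8.91 in q2. It was the 1 gene of these 44 with a Cuffdiff p below 0.05 (p = 0.0415, q = 0.779 in the authors' deposited table). Over all tested genes, 5.99% had a Cuffdiff p below 0.05. All 6 microRNA effectors, Argonaute genes and Tnrc6a to Tnrc6c, lay below 0, whereas 4 of 5 exon junction complex genes and all 3 genes for cap and translation links lay above. These lists were picked out of 10, and others were mixed, such as the other adaptors with 4 above and 4 below 0. Some of the counted differences were close to 0, as for the Argonaute gene Eif2c1 at 2.79 and 2.78 FPKM. None of these lists was tested as a set. Pelo, a ribosome rescue factor, was at 29.6 and 11.9 FPKM, yet its Cuffdiff p was 0.418 in the authors' deposited table. Pabpc1, the main cytoplasmic poly(A)-binding protein, was at 107 and 106 FPKM.

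Members with and without TATTTAT had similar medians. The 16 members with the motif had a median log2 fold change of 0.02 and the 47 tested members without it 0.00029. Cnot6 and Dcp2, both with 2 matches, lay below 0, whereas Cnot6l with 3 matches lay at 0.01. No test was run on this comparison.

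The targeted gene Hnrnpd was at 7.50 FPKM in q1 and 5.59 in q2 (Cuffdiff p = 0.291 in the authors' deposited table), so it does not tell the conditions apart. Of the cell type markers, all 8 satellite cell genes were detected and summed to 349 FPKM in q1 and 406 in q2. They had no common direction, with 4 above and 4 below 0, a median log2 fold change of -0.09 and 0 called. The sort marker Sdc4 was the highest of them at 173 and 270 FPKM, and Pax7, the defining factor, the lowest at 1.16 and 0.85. The 4 fibroblast markers summed to 4984 and 4308 FPKM and the 4 macrophage markers to 252 and 232 FPKM. Most of the fibroblast sum came from Gsn, at 3583 and 2822 FPKM, whereas Pdgfra was the lowest at 15.1 and 13.6. The 6 endothelial markers summed to 2424 and 2099 FPKM. The 11 neutrophil markers summed to 1183 and 15240 FPKM, with 9 of them called higher in q2. Markers of other cells were thus abundant, neutrophil genes differed between conditions, and the part of this in the levels of the decay genes was not tested. In such bulk RNA, fewer cells of a type and less RNA per cell cannot be told apart.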

How the data were processed

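RNA sequencing of 3 wild-type and 3 AUF1-null samples was analysed from 1 table in the layout of Cuffdiff. The submitters' processing notes name the tools TopHat2 2.0.9 and Cufflinks 2.2.1, and the build mm9. The sources used here give neither the annotation nor how libraries were normalized or strand was treated. For each gene the authors deposited, per the file headers, a value for either condition, on the FPKM scale that Cuffdiff writes (the header names no unit), a log2 fold change, a test statistic (a score that was not used), and p-values with q-values. All 64 members' listed positions overlap the gene of that symbol in GENCODE vM21 (GRCm38), so coordinates are GRCm38, 1-based; 10 positions reach more than 5 kb beyond the gene.

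No test was run between samples. Calls are the deposited q below 0.05 over all tested genes. The text names, in each of 8 functional groups, members with p below 0.05, the most abundant, those with the largest difference and untested ones, then the remaining members except 1 that is counted but not reported here, 8 paralogue pairs and fixed lists of cofactors and cell markers. Members and lists were chosen with earlier results of these data known. The 3' UTR is the longest of protein-coding transcripts with a stop codon, found for 88.0% of tested genes by symbol. Python 3.11.15, pandas, numpy and matplotlib were used. The adjustment was tested on simulated p-values, and the motif search was checked on a short made-up sequence only.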

Additional observations from a re-analysis of the deposited data

How the results depend on the processing

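No paired analysis was possible because the table holds 1 pooled value per condition and no column of a sample; leaving out a replicate was not possible for the same reason. The count of called members remained 0 at q below 0.1, where 110 genes were called in all, and after p-values were adjusted again over genes with at least 1 or 5 FPKM. By unadjusted p, 0 of 63 members passed at 0.01 and 4 of 63 at 0.1, against 321 and 1423 of the 14858 tested genes. The median log2 fold change of members stayed between 0.0068 and 0.028 under all 8 settings with pseudocounts of 0.1 or 1, minimum levels, centring or other membership. It was -0.0305 without the 10 members of wide listed position, a choice made after seeing the data, so the side of 0 on which this median lies depends on them. The number of members above 0 stayed within 1.5 times of 33 in all 9 alternatives. That limit is broad, and the number of members itself ranged from 53 to 67. It was 33 of 63 in the main setting and 25 of 53 without the members of wide position. Which side of 0 held more members therefore also depends on these. The percentage of members with a motif was 71.9% for ATTTA (69.3% of tested genes) and 6.25% for TTATTTATT (7.98%), since a shorter motif occurs more often, and 15.6% for TATTTAT in the shortest 3' UTR (18.3%). Depth behind single values is unknown, and the pooled values limit what can be said of any gene.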
